A study of Mus musculus with 44 samples.

Results

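The methionine cycle and betaine genes were 9 mouse genes, Mat1a, Mat2a, Gnmt, Ahcy, Bhmt, Bhmt2, Chdh, Cbs and Cth, chosen by their function because the diets compared here lack choline. They were found by gene symbol in a table of liver RNA sequencing counts. All 9 were among its 35249 genes, and all 9 passed the filter on low counts that left 14862 genes to test. Livers came from wild type (WT) mice and from mice with a knockout of Ripk3 (Ripk3KO) or of Mlkl (MlklKO). Necroptosis, a form of regulated cell death in which the cell bursts, runs through both proteins, RIPK3 as the kinase that phosphorylates MLKL and MLKL as the pore former, and both knockouts block it. Mice that were 2 months old received normal chow (control) or a diet without choline that was either low in fat (CD-LFD) or high in fat (CD-HFD), and were kept on it for 6 months. WT mice gave 6 libraries on each diet. Ripk3KO mice gave 6 on control, 3 on CD-LFD and 4 on CD-HFD, and MlklKO mice gave 6, 4 and 3. No group received a choline-containing form of either test diet, so the lack of choline and any other difference from chow cannot be told apart.

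In the methionine cycle, methionine and ATP are joined into S-adenosylmethionine (SAM), the methyl donor of most methylation reactions. Use of SAM leaves S-adenosylhomocysteine (SAH), which is split into homocysteine and adenosine, and homocysteine is then remethylated to methionine or passed on through cystathionine to cysteine. The liver remethylates homocysteine with methyl groups from folate or from betaine, and betaine is made in mitochondria by oxidation of choline. Hepatocytes carry most of this machinery, and the loss of Gnmt or Mat1a in mice is known to lead to fatty liver and liver tumours.

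The sequences just upstream of 4 genes are shown. Gnmt, Cbs and Ahcy were the members called lower in the most of the 6 comparisons of a choline-deficient diet with control (6, 6 and 5), and Mat2a was the one called higher. RefSeq promoter windows (GRCm38.p6) were found for 7 of the 9 genes, and the 250 bases before the start site were searched on both strands. Capitals mark matches, on either strand, to 5 short motifs: the E-box core CACGTG, the CCAAT box, the GC box GGGCGG, the TATA box written as TATAAA, and the nuclear receptor core element AGGTCA. A pair of GC box matches in Mat2a overlap each other.
Gnmt: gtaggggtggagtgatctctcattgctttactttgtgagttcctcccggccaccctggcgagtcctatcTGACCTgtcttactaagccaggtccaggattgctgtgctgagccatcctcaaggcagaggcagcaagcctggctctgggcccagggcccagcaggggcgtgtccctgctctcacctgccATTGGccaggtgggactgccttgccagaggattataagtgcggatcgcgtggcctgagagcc
Ahcy: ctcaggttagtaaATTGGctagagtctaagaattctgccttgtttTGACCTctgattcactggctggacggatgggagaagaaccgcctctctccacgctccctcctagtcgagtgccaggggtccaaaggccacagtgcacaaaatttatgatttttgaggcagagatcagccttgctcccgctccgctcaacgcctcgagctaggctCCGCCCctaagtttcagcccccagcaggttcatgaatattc
Cbs: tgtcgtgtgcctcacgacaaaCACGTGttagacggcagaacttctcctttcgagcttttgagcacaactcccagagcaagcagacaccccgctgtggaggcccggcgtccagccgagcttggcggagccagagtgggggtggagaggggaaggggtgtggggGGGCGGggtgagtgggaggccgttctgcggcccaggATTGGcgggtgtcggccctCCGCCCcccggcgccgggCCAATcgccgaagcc
Mat2a: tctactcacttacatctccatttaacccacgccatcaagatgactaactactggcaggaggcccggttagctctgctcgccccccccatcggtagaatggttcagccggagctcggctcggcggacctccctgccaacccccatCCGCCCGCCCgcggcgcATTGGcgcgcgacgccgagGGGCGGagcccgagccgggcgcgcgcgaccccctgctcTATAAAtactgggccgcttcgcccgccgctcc

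All 4 windows lie on the minus strand, at chr17:46729166-46729415 (Gnmt), chr2:155074498-155074747 (Ahcy), chr17:31637206-31637455 (Cbs) and chr6:72439557-72439806 (Mat2a). Among the 4, Cbs alone held the E-box core, which was present in 6.02% of all 32851 windows of this length. Mat2a alone held TATAAA, with its first base 32 bases before the start (12.4% of windows). CCAAT stood in all 4 (33.8% of windows), GGGCGG in Ahcy, Cbs and Mat2a (32.7%), and AGGTCA in Gnmt and Ahcy (14%). Bhmt2, also lower in WT on both diets and not shown, held GGGCGG and none of the other 4 motifs. A match describes the letters only.

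Total counts ranged from 2476268 to 12471844 per library, except for WT CD-LFD replicate 3 with 88204703, and the lowest count of any of the 9 genes in a library was 155. Libraries of 1 group all differed by more than sampling noise. The labels do not say that each came from its own mouse, so p-values measure the spread between these libraries. Ripk3 was at 0 to 1.01 CPM (counts scaled to the library total) in Ripk3KO livers, highest in the library labelled Ripk3KO control replicate 5, against 0.439 to 5.94 in WT livers. Mlkl was at 1.24 to 6.02 CPM in MlklKO livers other than the library labelled MlklKO CD-HFD replicate 1, which held 14.4, against 2.02 to 22.6 in WT livers. Without both of those libraries, 1 call among the 9 genes was lost (Cth in Ripk3KO on CD-LFD, described with that gene). Hepatocyte markers were abundant in every group (7 of the 8 listed were in the table), with a summed level of 58467 CPM or more in each WT library on CD-HFD.

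Levels below are CPM scaled by TMM, a factor that aligns libraries of different RNA composition. Per kilobase of exon, mean levels in WT control livers were highest for Gnmt (1356), followed by Mat1a (697), Ahcy (591) and Bhmt (445). Cth (142), Bhmt2 (93.3), Cbs (86.7), Chdh (26.8) and Mat2a (19.9) were lower. Lengths joined all annotated exons of a gene (1206 bases for Gnmt, 7485 for Cbs), so genes with many alternative exons may be set too low. Without division by length, Cbs (649 CPM) stood above Cth (397) and Bhmt2 (230) in WT control livers. On CD-HFD the order of the 4 most abundant genes in WT was Mat1a (474), Bhmt (303), Gnmt (301) and Ahcy (198). When the 9 groups were ranked by mean for each gene, the ranges of neighbouring groups overlapped throughout, with 2 exceptions. Gnmt in MlklKO control livers lay wholly above MlklKO CD-LFD livers, the next in rank, and Ahcy in MlklKO CD-HFD livers wholly above WT CD-LFD livers.

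**Figure D1:**
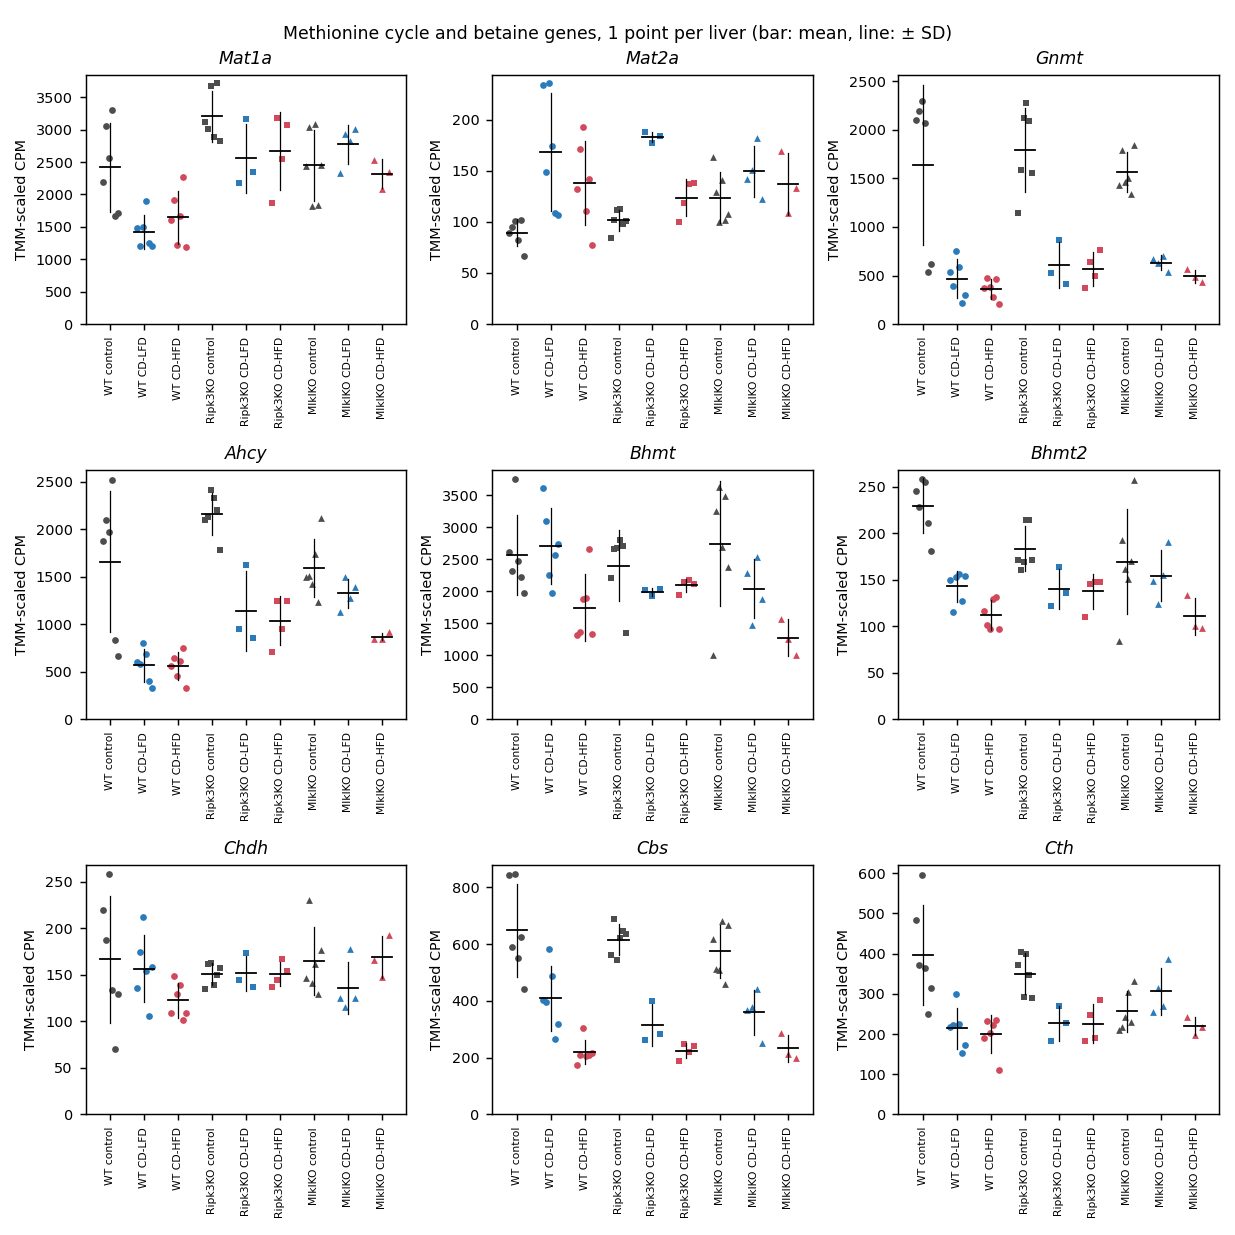
TMM-scaled CPM of the 9 genes in each of 44 livers, by genotype and diet (grey control, blue CD-LFD, red CD-HFD; bar mean, line SD). Gnmt and Cbs sit lower on both choline-deficient diets in all 3 genotypes, and WT control livers split into 4 at 2066 to 2293 and 2 at 541 and 622 for Gnmt.

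In WT livers on CD-HFD, 8 of the 9 genes fell and 1, Mat2a, rose against control (edgeR quasi-likelihood test, Benjamini-Hochberg adjusted p under 0.05). Over all tested genes 47.7% were called in that comparison, 23.5% higher and 24.1% lower. The median log2 difference of the 9 genes was -0.99, against -0.07 over all genes and -0.86 over the hepatocyte markers. On CD-LFD in WT, 6 genes fell and Mat2a rose, where 27.7% of all genes were called (13.7% higher, 14% lower), and the median of the 9 was -0.69. Between CD-HFD and CD-LFD in WT, Cbs and Bhmt were lower on CD-HFD and none was higher (21.1% of all genes were called, 13.7% higher and 7.4% lower).

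Fewer of the 9 genes passed in the knockouts. In Ripk3KO livers on CD-HFD, 4 fell (Gnmt, Ahcy, Cbs, Cth) with 46.3% of all genes called (24.6% higher, 21.7% lower). On CD-LFD these 4 fell and Mat2a rose, with 24.1% called (14% higher, 10.1% lower). In MlklKO livers on CD-HFD, 5 fell (Gnmt, Ahcy, Cbs, Bhmt, Bhmt2) with 45.2% called (24.9% higher, 20.3% lower). On CD-LFD 2 fell (Gnmt, Cbs) with 37.9% called (19.7% higher, 18.3% lower). CD-HFD against CD-LFD gave 1 call in MlklKO, Cbs lower (23.7% of all genes called, 14.6% higher and 9.14% lower). In Ripk3KO it gave 0 by edgeR and by DESeq2, 2 genes had an unadjusted p under 0.05, and 8.83% of all genes were called (5.75% higher, 3.08% lower). With only the compared groups in the fit, the counts for CD-HFD against CD-LFD were 5 in MlklKO and 1 in Ripk3KO. A gene called in WT and not in a knockout is not thereby shown to differ between them, and the tests of that difference follow the gene descriptions.

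**Figure D2:**
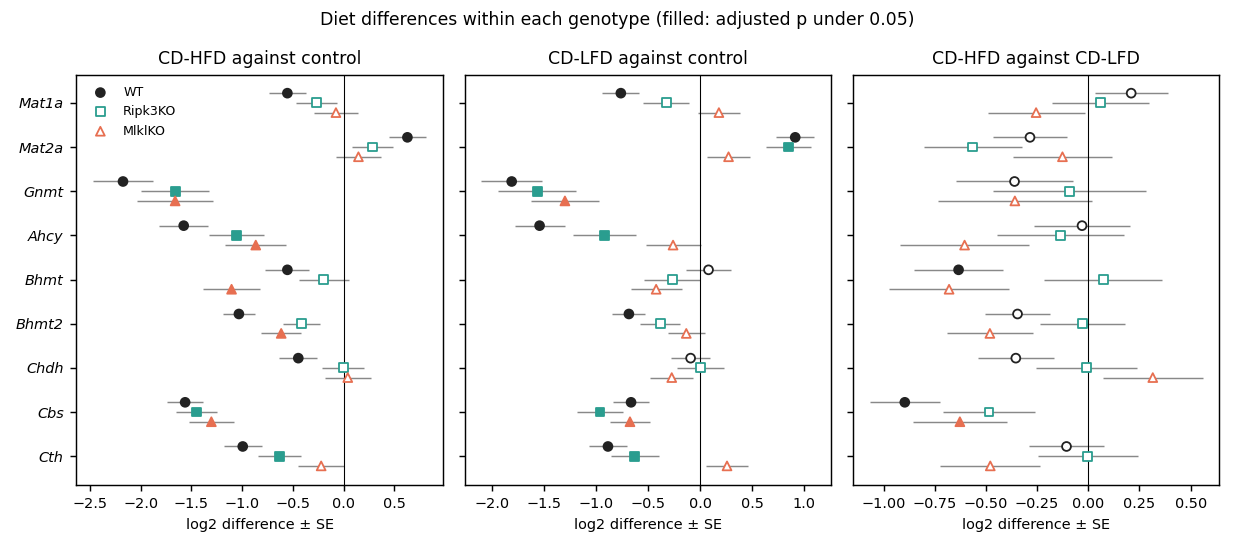
Log2 difference (± SE) of each gene between diets within WT, Ripk3KO and MlklKO livers; filled symbols have an adjusted p under 0.05. Gnmt and Cbs are filled in all 3 genotypes for both choline-deficient diets against control.

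Mat1a encodes the liver form of the enzyme that makes SAM. In WT livers it ranged from 1663 to 3301 CPM on control (median 2379), from 1205 to 1898 on CD-LFD (median 1365) and from 1192 to 2267 on CD-HFD (median 1636). The lowest control livers, replicates 5 and 6 at 1663 and 1717, lay within the range of both test diets. By edgeR the log2 difference from control on CD-LFD was -0.76 (SE 0.179, adjusted p 0.00135), and for CD-HFD it was -0.56 (SE 0.179, adjusted p 0.0095). The CD-HFD call was lost with library size alone, where the value was -0.06 (adjusted p 0.764), without the count filter (0.0599) and with only the compared groups in the fit (0.0827).

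In the knockouts Mat1a was not called on either diet. Ripk3KO livers held 2819 to 3723 CPM on control (median 3066), 2172, 3164 and 2341 on CD-LFD, while CD-HFD gave 1865, 3183, 2543 and 3068. MlklKO livers held 1829 to 3093 on control (median 2442), 2329, 2927, 2822 and 3008 on CD-LFD, while CD-HFD gave 2535, 2090 and 2343. All knockout livers on CD-LFD thus lay above the 1898 of the highest WT liver on that diet.

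Mat2a encodes the SAM-making enzyme of most other tissues and of growing liver, and was the only member called higher on a diet under TMM scaling. In WT livers it ranged from 66.5 to 102 CPM on control (median 92.4), from 106 to 236 on CD-LFD (median 162) and from 77.5 to 193 on CD-HFD (median 137). All 6 livers on CD-LFD lay above all control livers, and 5 of 6 did on CD-HFD. The log2 difference was 0.91 (SE 0.185, adjusted p 0.000263) and 0.63 (SE 0.184, adjusted p 0.00461), respectively, by edgeR. A short antisense gene shares 508 exon bases with Mat2a, and the strand setting of the counting is not given in the sources used here.

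Ripk3KO livers held 84.2 to 112 CPM of Mat2a on control and 188, 177 and 184 on CD-LFD, which did not overlap. That difference was 0.85 (SE 0.218, adjusted p 0.00397) by edgeR. On CD-HFD the values were 100.4, 119, 137 and 139, and the difference of 0.29 (SE 0.203, adjusted p 0.255) did not pass. It passed with only the compared groups in the fit (0.34, adjusted p 0.0423). In MlklKO livers Mat2a spanned 99.6 to 163 on control, and the 4 and 3 livers on CD-LFD (142, 151, 182, 123) and CD-HFD (169, 108, 133) overlapped that range, with no call on either diet.

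The ratio of Mat1a to Mat2a, from levels per kilobase, follows from these values and is given without a test. In WT it was 35.4 ± 10.3 on control (mean ± SD, n = 6), 11.8 ± 3.22 on CD-LFD (n = 6) and 16.4 ± 4.71 on CD-HFD (n = 6). All WT livers on either choline-deficient diet (8.13 to 20.6) lay below all WT control livers (21.1 to 51.8). In Ripk3KO it was 41.2 ± 6.52 (n = 6), 18.2 ± 4.33 (n = 3) and 27.8 ± 5.05 (n = 4). In MlklKO the 3 means were 25.8 ± 4.31 (n = 6), 24.5 ± 5.26 (n = 4) and 22.4 ± 2.81 (n = 3), with overlapping ranges.

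**Figure D3:**
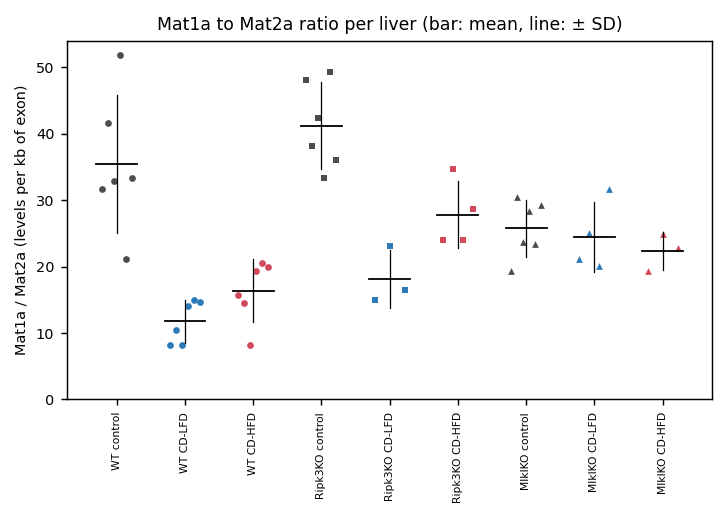
Ratio of Mat1a to Mat2a per kilobase of exon in each liver (bar mean, line SD). Each Ripk3KO control liver (33.3 to 49.3) lies above every MlklKO control liver (19.3 to 30.5), and the MlklKO diet groups overlap one another.

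Gnmt encodes glycine N-methyltransferase, an abundant liver enzyme that uses up SAM by methylating glycine, and had the largest difference among the 9 genes in all 6 comparisons of a choline-deficient diet with control. WT control livers held 2098, 2196, 2293, 2066, 541 and 622 CPM, those on CD-LFD 217 to 757 (median 464) and those on CD-HFD 203 to 477 (median 380). All CD-HFD livers lay below all control livers, whereas control replicates 5 and 6 lay within the CD-LFD range. The log2 difference by edgeR was -2.17 on CD-HFD (SE 0.296, adjusted p 7.94e-08), a 4.51-fold lower level, and -1.81 on CD-LFD (SE 0.292, adjusted p 9.91e-06). Without control replicates 5 and 6 these became -2.58 and -2.22.

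In both knockouts no Gnmt value on a choline-deficient diet reached the control range. Ripk3KO livers held 1139 to 2274 CPM on control (median 1838), 531, 869 and 414 on CD-LFD, while CD-HFD gave 370, 640, 493 and 767. MlklKO livers held 1339 to 1848 on control (median 1485), 666, 629, 705 and 534 on CD-LFD, while CD-HFD gave 564, 486 and 432. By edgeR the log2 difference on CD-HFD was -1.66 in both Ripk3KO (SE 0.336, adjusted p 8.33e-05) and MlklKO (SE 0.376, adjusted p 0.000367). On CD-LFD it was -1.57 in Ripk3KO (SE 0.374, adjusted p 0.00205) and -1.30 in MlklKO (SE 0.331, adjusted p 0.0022). The fall of Gnmt remained called in all 6 comparisons under each alternative run for it, including each library left out in turn.

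Ahcy encodes the hydrolase that splits SAH, the product that inhibits methyltransferases. WT control livers held 1875, 2097, 1969, 2515, 834 and 663 CPM, with replicates 5 and 6 low as for Gnmt, and the test diets gave 332 to 800 on CD-LFD (median 595) and 328 to 745 on CD-HFD (median 583). A single control liver, replicate 6 at 663, overlapped both. The log2 difference by edgeR was -1.55 on CD-LFD (SE 0.240, adjusted p 5.52e-06) and -1.58 on CD-HFD (SE 0.240, adjusted p 7.29e-07), and between the test diets -0.03 (SE 0.235, adjusted p 0.949). Near-identical copies exist for Ahcy (Gm4737, 99.7% identity over 2083 bases), and that copy held 0.436% as many counts.

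On CD-LFD every knockout liver held more Ahcy than any WT liver. Ripk3KO livers held 1782 to 2414 CPM on control (median 2164), 948, 1624 and 851 on CD-LFD, while CD-HFD gave 709, 1249, 951 and 1239. MlklKO livers held 1237 to 2119 on control (median 1503), 1130, 1497, 1277 and 1388 on CD-LFD, while CD-HFD gave 849, 847 and 915. The fall in Ripk3KO was -0.92 on CD-LFD (SE 0.299, adjusted p 0.0216) and -1.06 on CD-HFD (SE 0.271, adjusted p 0.0014) by edgeR. The CD-LFD call was lost without Ripk3KO CD-LFD replicate 1 or 3 (adjusted p up to 0.160). In MlklKO it was -0.87 on CD-HFD (SE 0.299, adjusted p 0.0162), while the -0.26 on CD-LFD (SE 0.264, adjusted p 0.442) did not pass.

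Bhmt encodes betaine-homocysteine methyltransferase, which moves a methyl group from betaine to homocysteine. In WT livers it ranged from 1980 to 3761 CPM on control (median 2396), 1967 to 3613 on CD-LFD (median 2650) and 1321 to 2656 on CD-HFD (median 1624). On CD-HFD 5 of 6 livers lay below all control livers. By edgeR the log2 difference was -0.55 on CD-HFD (SE 0.218, adjusted p 0.0330), 0.08 on CD-LFD (SE 0.217, adjusted p 0.824) and -0.63 between CD-HFD and CD-LFD (SE 0.218, adjusted p 0.0318). The CD-HFD call was lost under 7 of the alternatives, with adjusted p between 0.0502 (DESeq2) and 0.796 (library size alone), and without WT control replicate 3 or CD-HFD replicate 1, 2 or 6 (up to 0.125). The call between the test diets was lost with a term for clock state, described with the clock genes (-0.52, adjusted p 0.288), with library size alone (0.103), without the count filter (0.0561) and without CD-LFD replicate 1 or 2 or CD-HFD replicate 1, 2 or 6 (up to 0.0980). The copies Gm5096 (99.4% identity over 1869 bases) and Bhmt-ps1 held 0.523% and 0.207% as many counts. How reads that match several of these genes were counted is not given in the sources used here.

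In Ripk3KO livers Bhmt was at 1341 to 2804 CPM on control, at 2016, 1922 and 2037 on CD-LFD and at 1946, 2145, 2175 and 2111 on CD-HFD, with no call. MlklKO livers held 1011, 3262, 3626, 2688, 3486 and 2383 on control and 1571, 1255 and 999 on CD-HFD, so that replicate 1 alone among the control livers fell within the CD-HFD range. The log2 difference was -1.10 (SE 0.280, adjusted p 0.00125) by edgeR. On CD-LFD the 4 MlklKO livers held 2289, 1479, 2530 and 1872, and the difference of -0.42 (SE 0.246, adjusted p 0.166) passed only without control replicate 1 (-0.60, adjusted p 0.0341).

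Bhmt2 encodes a related enzyme that uses S-methylmethionine as its methyl donor. In WT livers it ranged from 181 to 259 CPM on control (median 237), 116 to 157 on CD-LFD (median 152) and 97.4 to 132 on CD-HFD (median 109). Neither test diet overlapped control. The log2 difference by edgeR was -0.69 on CD-LFD (SE 0.158, adjusted p 0.00112) and -1.03 on CD-HFD (SE 0.159, adjusted p 8.96e-07).

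In the knockouts Bhmt2 was called on 1 diet in 1 genotype. MlklKO control livers held 84.7, 193, 161, 151, 171 and 258 CPM, replicate 1 again the lowest, and those on CD-HFD 134, 100.5 and 98.2, a difference of -0.62 (SE 0.198, adjusted p 0.0101) by edgeR. That call was lost without MlklKO CD-HFD replicate 4 (adjusted p 0.0521) and with only the compared groups in the fit (0.142). Ripk3KO livers held 161 to 214 on control and 110.0, 145, 147 and 148 on CD-HFD, which did not overlap, yet the difference of -0.42 (SE 0.178, adjusted p 0.0517) did not pass. It passed with only the compared groups in the fit (adjusted p 0.0381) and without Ripk3KO control replicate 2 (0.0432). On CD-LFD the livers of both knockouts (122, 164 and 136 in Ripk3KO; 149, 124, 155 and 191 in MlklKO) gave no call.

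Chdh encodes choline dehydrogenase, the mitochondrial enzyme that starts the oxidation of choline to betaine. Its group means were 123 to 169 CPM, the narrowest span of the 9 genes in proportion to level. WT control livers spread from 70.7 to 258 and enclosed the CD-HFD livers (101 to 148). The log2 difference in WT on CD-HFD was -0.45 (SE 0.186, adjusted p 0.0442) by edgeR. This call was lost in 7 of the 12 fits with a library left out, without WT control replicate 1, 2 or 3 or CD-HFD replicate 1, 3, 5 or 6 (adjusted p up to 0.215), and under 7 other alternatives, and with library size alone the value was 0.057. No other diet comparison gave a call for Chdh under TMM, whereas with library size alone it was called at 0.53 in Ripk3KO on CD-HFD, and in MlklKO on CD-HFD at 0.57 against control (adjusted p 0.0270) and 0.71 against CD-LFD (adjusted p 0.0187). The medians of all genes under that scaling were 0.49, 0.49 and 0.41 in the same comparisons. Exons of Chdh and of Cacna1d, on the opposite strand, share 589 bases.

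Cbs encodes cystathionine beta-synthase, which condenses homocysteine with serine in the first step of transsulfuration. In WT livers it ranged from 440 to 845 CPM on control (median 607), 267 to 582 on CD-LFD (median 399.5) and 174 to 303 on CD-HFD (median 209). CD-HFD livers did not overlap control livers, and 4 of 6 CD-LFD livers lay below them all. By edgeR the log2 difference was -0.67 on CD-LFD (SE 0.171, adjusted p 0.00315), -1.56 on CD-HFD (SE 0.174, adjusted p 1.04e-09) and -0.90 between the test diets (SE 0.172, adjusted p 0.000129). The CD-LFD call was lost with only the compared groups in the fit (adjusted p 0.0522) and with library size alone (0.0510), and the call between the test diets with the clock term (-0.59, adjusted p 0.0746).

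Cbs was lower on both test diets in the knockouts as well, with no overlap with control. Ripk3KO livers held 542 to 689 CPM on control (median 628), 261, 401 and 284 on CD-LFD, while CD-HFD gave 189, 249, 221 and 241. MlklKO livers held 461 to 681 on control (median 565), 369, 379, 441 and 250 on CD-LFD, while CD-HFD gave 286, 213 and 199.9. The differences by edgeR in Ripk3KO were -0.97 for CD-LFD (SE 0.218, adjusted p 0.00119) and -1.45 for CD-HFD (SE 0.200, adjusted p 1.24e-07). In MlklKO they were -0.68 (SE 0.194, adjusted p 0.00614) and -1.30 (SE 0.222, adjusted p 6.22e-06), in that order. CD-HFD was below CD-LFD in MlklKO by -0.63 (SE 0.229, adjusted p 0.0407). That call was lost in 5 of 7 fits with a library left out, without CD-LFD replicate 1, 2 or 3 or CD-HFD replicate 2 or 4 (adjusted p up to 0.162), and with library size alone (0.350), without the count filter (0.0794) or with the replicate number as a block (-0.57, adjusted p 0.0616).

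Cth encodes cystathionine gamma-lyase, which releases cysteine from cystathionine. In WT livers it ranged from 251 to 596 CPM on control (median 368), 153 to 299 on CD-LFD (median 219.6) and 109 to 236 on CD-HFD (median 213). CD-HFD livers did not overlap control livers, and 1 CD-LFD liver did. The log2 difference by edgeR was -0.89 on CD-LFD (SE 0.185, adjusted p 0.000358) and -0.99 on CD-HFD (SE 0.185, adjusted p 2.27e-05).

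Cth also fell in Ripk3KO livers, which held 289 to 403 CPM on control (median 359.8), 182, 270 and 227 on CD-LFD, while CD-HFD gave 182, 246, 190 and 285. The difference was -0.63 on both diets by edgeR (CD-LFD SE 0.231, adjusted p 0.0417; CD-HFD SE 0.209, adjusted p 0.0119). The CD-LFD call was lost in 6 of 9 fits with a library left out, without control replicate 1, 2, 4 or 5 or CD-LFD replicate 1 or 3 (adjusted p up to 0.203), and without the count filter (0.0893). It was also lost without the library labelled Ripk3KO control replicate 5 and the library labelled MlklKO CD-HFD replicate 1 together (0.0586). The CD-HFD call was lost without CD-HFD replicate 1 (0.0566). MlklKO livers held 210 to 331 on control (median 237), 256, 314, 269 and 386 on CD-LFD, while CD-HFD gave 244, 198 and 217, and neither diet was called.

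The groups did not overlap in WT on CD-HFD for Bhmt2, Gnmt, Cbs and Cth (4 of 9), where 20.9% of all tested genes did not overlap, and on CD-LFD for Bhmt2 and Mat2a (7.62% of all genes). For CD-HFD in Ripk3KO it was 5 of 9 (36.4% of all genes) and in MlklKO 3 of 9 (39.4%). For CD-LFD it was 5 of 9 (20.7%) and 2 of 9 (25.9%), in that order. Group sizes differ between WT and the knockouts.

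TMM scaling bears on these directions, since its factors ran from 0.799 to 1.34 and averaged 0.891 in WT control and 1.26 in WT CD-HFD libraries. With libraries scaled by their total alone, the median log2 difference of all genes moved from -0.07 to 0.43 in WT on CD-HFD and from -0.03 to 0.27 on CD-LFD. The split of calls moved from 3496 higher and 3586 lower to 6813 and 1020 in WT on CD-HFD. Gnmt was then called lower in all 6 comparisons with control and Cbs in 5, Cbs in WT on CD-LFD being the exception. The calls of Ahcy in Ripk3KO (-0.64, adjusted p 0.0575 on CD-LFD; -0.53, adjusted p 0.0556 on CD-HFD) and in MlklKO on CD-HFD (-0.34, adjusted p 0.290) were lost. So were those of Cth in Ripk3KO (-0.33, adjusted p 0.224; -0.10, adjusted p 0.677), and of Bhmt (-0.59, adjusted p 0.0585) and Bhmt2 (-0.10, adjusted p 0.678) in MlklKO on CD-HFD. In WT on CD-HFD, Ahcy, Bhmt2 and Cth also remained called lower and Mat2a higher (1.13), while Mat1a (-0.06, adjusted p 0.764) and Bhmt (-0.07, adjusted p 0.796) were lost. Chdh was then 0.53 in Ripk3KO on CD-HFD (adjusted p 0.0249) and Mat1a 0.45 in MlklKO on CD-HFD (adjusted p 0.0432), where the median of all genes stood at 0.49 in both comparisons. Mat2a was then called higher on CD-HFD in Ripk3KO (0.82) and MlklKO (0.67) as well.

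Marker genes of several cell types also differed between the diets. In WT on CD-HFD all 7 tested hepatocyte markers were lower, as were 4 of 4 endothelial, 3 of 6 pericentral and 4 of 6 periportal hepatocyte markers. All markers of macrophages and leukocytes (6), stellate cells and fibroblasts (6), cholangiocytes (5) and proliferating cells (4) were higher. Under library size alone 2 of 7 hepatocyte, 2 of 4 endothelial and 2 of 6 pericentral markers were called lower and 1 pericentral marker higher, while the counts for the 4 rising lists stayed at 6, 6, 5 and 4. The summed level of the macrophage and leukocyte markers was 107 to 153 CPM in WT control livers and 860 to 2198 on CD-HFD, that of the stellate markers 164 to 210 and 777 to 1487, and that of the cholangiocyte markers 44.6 to 83.1 and 675 to 1122. The summed hepatocyte markers were at 88324 to 156849 and 58467 to 92915 CPM. Of exocrine pancreas markers Prss2, Pnlip and Cela3b were at 0 in WT control and WT CD-LFD livers, and Cela1, the only tested one, fell on CD-HFD (-1.18, SE 0.211) and on CD-LFD (-1.02, SE 0.211). Cela1 was also called lower on both diets in Ripk3KO (-1.06 on CD-HFD, -0.80 on CD-LFD) and MlklKO (-1.41, -0.73). The Ripk3KO calls were lost with library size alone, and the CD-LFD calls with only the compared groups in the fit or without Ripk3KO control replicate 4 or any 1 Ripk3KO CD-LFD library, or MlklKO control replicate 4 or CD-LFD replicate 1 or 4. In bulk tissue, fewer hepatocytes and less RNA per hepatocyte cannot be told apart, and the part of this shift in the falls of the 9 genes was not tested.

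The hepatocyte markers were read on CD-LFD in the same way. Their summed level there was 63178 to 112066 CPM in WT, with 2 of 7 markers called lower (median log2 difference -0.49), 3 of 7 in Ripk3KO (median -0.54), and 3 lower and 1 higher in MlklKO (median -0.11). In WT this count was 0 with library size alone and 1 to 4 with 1 library left out (1 without CD-LFD replicate 5 or 6 or control replicate 3, 4 without CD-LFD replicate 3 or control replicate 6), and in Ripk3KO it was 1 without CD-LFD replicate 3. On CD-HFD 6 of 7 fell in Ripk3KO (median -0.99) and 4 of 7 in MlklKO (median -0.86), where the medians of the 9 genes against control were -0.42 and -0.62. These values are under TMM. With library size alone the median over all genes moved from -0.05 to 0.49 in Ripk3KO and from -0.04 to 0.49 in MlklKO on CD-HFD. Compared directly, CD-HFD was lower than CD-LFD for 2 of 7 markers in WT, 1 in Ripk3KO and 3 in MlklKO.

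Each knockout was then compared with WT on the same diet. Clock state, described with the clock genes, also differed between the genotypes, most on control and CD-LFD. A difference there cannot be assigned to blocked necroptosis alone. On control, no member was called in Ripk3KO by edgeR or DESeq2, and 2 had an unadjusted p under 0.05 (4.47% of all genes were called, 2.25% higher and 2.23% lower). In MlklKO on control Cth (-0.63, SE 0.184, adjusted p 0.00927) and Bhmt2 (-0.44, SE 0.158, adjusted p 0.0345) were lower by edgeR, and 27.1% of all genes were called (13% higher, 14.1% lower). The Bhmt2 call was lost in 6 of 12 fits with a library left out, without WT control replicate 1, 3 or 4 or MlklKO control replicate 1, 3 or 4 (adjusted p up to 0.127). It was also lost without the count filter (0.140) and with only the compared groups in the fit (0.139), and both calls were lost with the clock term (Bhmt2 0.0531, Cth 0.0942). Mat2a stood at 0.47 (SE 0.184, adjusted p 0.0526). It passed with DESeq2 (0.0422), the clock term (0.0466) and the replicate block (0.0251), and without WT control replicate 3 or MlklKO control replicate 3, 5 or 6 (adjusted p down to 0.0398).

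On CD-LFD, Mat1a and Ahcy were higher in MlklKO than in WT livers, and the groups did not overlap for either gene. By edgeR the log2 difference was 0.96 for Mat1a (SE 0.197, adjusted p 0.00283) and 1.22 for Ahcy (SE 0.259, adjusted p 0.00419), with 2.56% of all genes called (1.64% higher, 0.929% lower) and 6.98% not overlapping. Both calls were lost with the clock term, as described with the clock genes. Of 6 periportal hepatocyte markers 4 were also called higher (Pck1, Sds, Ass1 and Gls2; median of the list 0.88). Their summed level was 9405 to 12885 CPM in MlklKO and 3681 to 6898 in WT livers. None of the 7 hepatocyte markers was called, and 2 had an unadjusted p under 0.05. The rise was not particular to periportal markers. Summed pericentral markers were at 10885 to 12603 CPM in MlklKO and 5900 to 10280 in WT livers. Summed hepatocyte markers were at 121981 to 132008 and 63178 to 112066, in that order. In Ripk3KO 1 of the 6 periportal markers was called higher (median 0.64). The part of these markers in the differences was not tested. In Ripk3KO on CD-LFD only Mat1a passed by edgeR (0.85, SE 0.213, adjusted p 0.0322), where 1.1% of all genes were called (0.794% higher, 0.31% lower). Ahcy stood at 1.01 (SE 0.279, adjusted p 0.0630), and DESeq2 called it (0.99, adjusted p 0.0253). The Ripk3KO groups did not overlap WT for either gene, as for 7.89% of all genes. The Mat1a call in Ripk3KO was lost in 8 of 9 fits with a library left out (all but that without WT CD-LFD replicate 4, adjusted p up to 0.340) and without the count filter (0.103). The clock term ended that call as well.

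On CD-HFD no member was called in either knockout by edgeR, and 3 had an unadjusted p under 0.05 in each. DESeq2 called 1 in Ripk3KO, Mat1a (0.68, adjusted p 0.0417), and 0 in MlklKO. Of all genes, 0.377% were called in Ripk3KO (0.209% higher, 0.168% lower) and 0% in MlklKO. The values for Ahcy were 0.90 (SE 0.259, adjusted p 0.124) in Ripk3KO and 0.65 (SE 0.281, adjusted p 0.587) in MlklKO, and in MlklKO the groups did not overlap, as for 4.78% of all genes.

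Tests of the difference between diet responses gave calls in 1 of 4 cases. On CD-LFD the response of MlklKO livers was above that of WT for Ahcy (1.28, SE 0.350, adjusted p 0.0171), Cth (1.14, SE 0.274, adjusted p 0.00702) and Mat1a (0.94, SE 0.266, adjusted p 0.0212) by edgeR, with 8.45% of all genes called (4.37% higher, 4.08% lower). WT responses were -1.55, -0.89 and -0.76 and MlklKO responses -0.26, 0.26 and 0.18. Of the 6 periportal markers 3 (Gls2, Hal and Pck1) were called the same way in this test (median of the list 1.02, against 0.05 over all genes), and their part was not tested. With only the compared groups in the fit, Cth alone remained past the threshold (Ahcy 1.27, adjusted p 0.0542; Mat1a 0.92, adjusted p 0.0509), and Mat1a was also lost without the count filter (0.0791). The remaining 3 tests called no member by edgeR or DESeq2, with 1 (Ripk3KO, CD-HFD), 0 (Ripk3KO, CD-LFD) and 1 (MlklKO, CD-HFD) at an unadjusted p under 0.05. Of all genes these tests called 0.478% (0.135% higher, 0.343% lower), 0.0269% (0.00673% and 0.0202%) and 4.12% (1.58% and 2.54%). Without WT control replicates 5 and 6 the MlklKO response on CD-HFD passed for Ahcy (1.06, adjusted p 0.0284) and Cth (0.97, adjusted p 0.0297).

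Genotype and clock state moved together on CD-LFD. The log2 ratio of Arntl to Dbp, 2 clock genes of opposite phase, split the 44 libraries at a gap of 1.03 into 11 with a high and 33 with a low ratio. The high ratio was found in WT control replicates 1, 3, 5 and 6, all 6 WT CD-LFD livers and WT CD-HFD replicate 3, and in no knockout liver. With clock state as a term in the edgeR fit, the CD-LFD difference between MlklKO and WT was 0.60 for Ahcy (adjusted p 0.898) and 0.37 for Mat1a (adjusted p 0.945), and that of Mat1a in Ripk3KO 0.25 (adjusted p 1). The difference between diet responses in MlklKO on CD-LFD stood at 1.18 for Cth (adjusted p 0.00961), 1.03 for Ahcy (adjusted p 0.0621) and 0.71 for Mat1a (adjusted p 0.0780). The term only separates high from low, and all MlklKO libraries count as low. Their log2 ratio was nevertheless -5.01 to -3.71 on control and -7.30 to -5.94 on CD-LFD. The term does not adjust for that difference. No WT CD-LFD liver had the low ratio, so no value within that clock state could be had for these comparisons, and the labels give no time of day.

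Other comparisons were also refitted with the clock term or within the 33 low-ratio libraries. In WT on CD-HFD against control, Gnmt was -2.31 with the term and -2.53 within those libraries, and Ahcy -1.84 and -1.96. Between CD-HFD and CD-LFD in WT neither of the calls, Cbs and Bhmt, remained with the term. In MlklKO against WT on control the call of Cth was lost both ways (-0.56, adjusted p 0.0942; -0.50, adjusted p 0.125), as was that of Bhmt2. In WT control, Gnmt and Ahcy were low in replicates 5 and 6 and not in replicates 1 and 3, all with the high ratio. The cause of these low values was not tested.

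**Figure D4:**
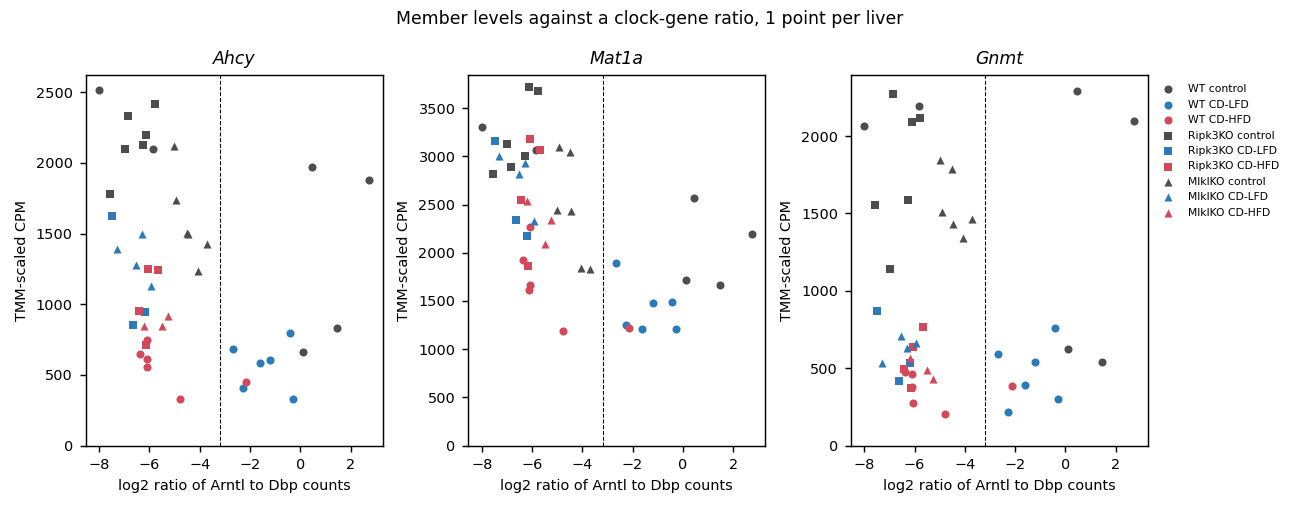
TMM-scaled CPM of Ahcy, Mat1a and Gnmt against the log2 ratio of Arntl to Dbp counts in 44 livers; the dashed line marks the gap between 33 low and 11 high libraries. All 6 WT CD-LFD livers (blue circles) lie to its right and all knockout livers (squares, triangles) to its left.

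The other genes of the pathway were followed as 5 lists, in WT on CD-HFD against control first. Of 15 tested genes of folate-linked remethylation (16 listed), 2 rose and 8 fell (median log2 difference -0.66). Of 10 genes of choline and betaine handling 2 rose and 8 fell (median -0.95), and of 8 methyltransferases that use SAM 0 rose and 6 fell (-0.66). Among 10 partners of SAM and SAH and polyamine genes 1 rose and 4 fell (-0.25), and among 12 genes of cysteine and sulfur use 1 rose and 9 fell (-0.78). The median over all genes was -0.07, and 47.7% of all genes were called (23.5% higher, 24.1% lower), near the 5 of 10 among the SAM and SAH partners. These splits rest on TMM: with library size alone they became 5 and 5 for folate, 2 and 6 for choline and betaine, 0 and 1 for methyltransferases, 4 and 1 for SAM and SAH partners (median 0.25) and 1 and 4 for sulfur use.

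In the folate list the mitochondrial enzymes Mthfd1l (2.17, SE 0.443) and Mthfd2 (1.64, SE 0.362) rose, while Gldc of the glycine cleavage system (-2.07, SE 0.287) and Aldh1l1, which oxidises 10-formyltetrahydrofolate (-1.98, SE 0.207), fell. Mthfd2 was scarce, with a mean of 2.86 CPM in WT control and 8.41 in WT CD-HFD livers. In choline and betaine handling the choline transporters Flvcr1 (1.73, SE 0.249) and Slc44a2 (1.43, SE 0.230) rose, and the phospho-lyase Etnppl (-2.26, SE 0.322) and the sarcosine oxidase Pipox (-1.76, SE 0.166) fell. Inmt (-2.94, SE 0.442) and Nnmt (-0.98, SE 0.304), which methylate amines and nicotinamide, were the largest falls among the methyltransferases. The Mthfd1l call was lost within low Arntl to Dbp libraries (1.03, adjusted p 0.0759), and that of Nnmt without WT control replicate 4 (adjusted p 0.0629) or with library size alone (0.168). These and the values below are log2 differences by edgeR, and each named gene had an adjusted p under 0.05 in this comparison.

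Sat1, which acetylates polyamines, rose (1.05, SE 0.166), and adenosine kinase Adk (-0.98, SE 0.165) and the Ahcy-like gene Ahcyl2 (-0.77, SE 0.251) fell. The Ahcyl2 call was lost without WT control replicate 1 (adjusted p 0.102), with the clock term (0.107), within low-ratio libraries (0.0789) and with library size alone (0.399). In cysteine and sulfur use, glutathione synthetase Gss rose (0.77, SE 0.141), and Csad, an enzyme of taurine synthesis (-3.32, SE 0.228), and sulfite oxidase Suox (-1.56, SE 0.293) fell. Csad went from 699.6 ± 132 CPM (SD, n = 6) in WT control to 69.9 ± 6.20 (n = 6) in WT CD-HFD livers. Csad, Pipox and Aldh1l1 also fell, and Slc44a2 and Mthfd1l also rose, on CD-HFD in both knockouts, and kept those calls in the knockouts under each alternative run. Etnppl (-0.44 in Ripk3KO, adjusted p 0.312; -0.08 in MlklKO, adjusted p 0.879) and Gss (0.12, adjusted p 0.552; 0.14, adjusted p 0.516) did not pass there, although Gss passed with library size alone (0.65 and 0.67).

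**Figure D5:**
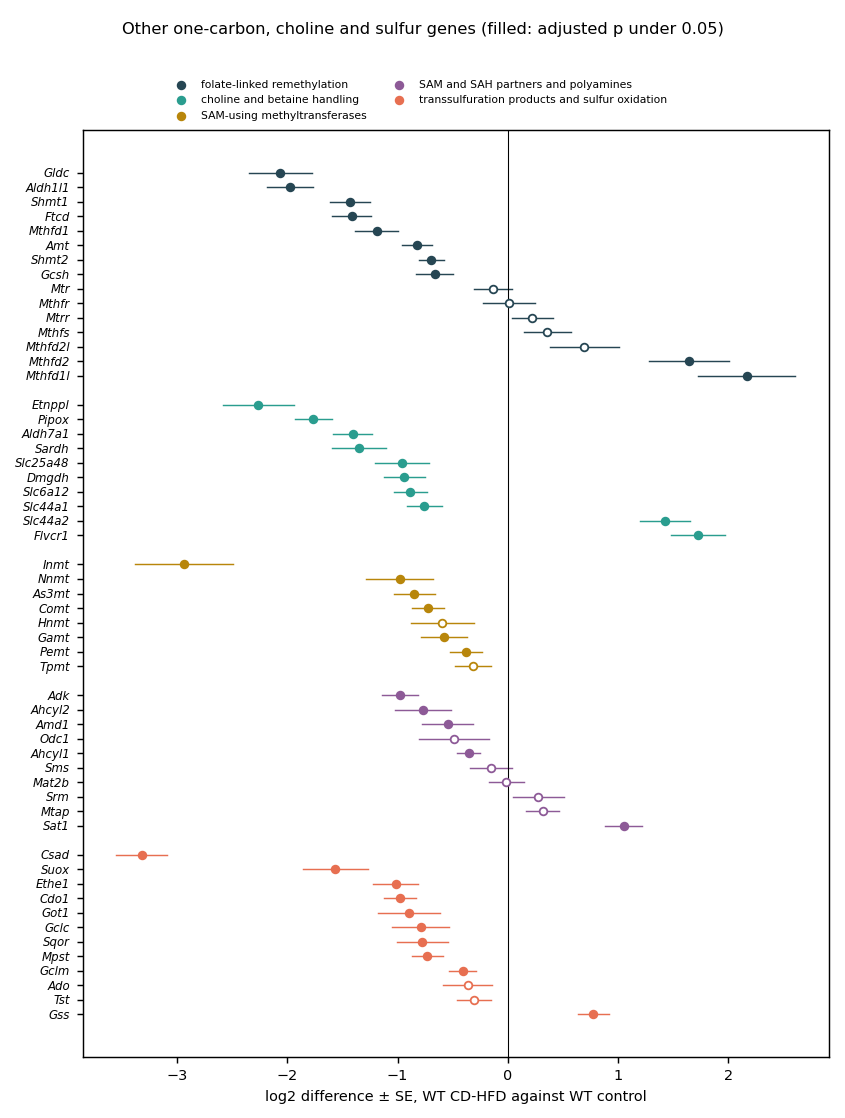
Log2 difference (± SE) between WT CD-HFD and WT control livers for the tested genes of 5 pathway lists; filled points have an adjusted p under 0.05. Csad (-3.32) and Inmt (-2.94) lie furthest to the left and Mthfd1l (2.17) furthest to the right.

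On CD-LFD in WT the 5 lists gave 1 higher and 8 lower for folate, 0 and 7 for choline and betaine, 0 and 3 for the methyltransferases, 1 and 3 for SAM and SAH partners, and 1 and 5 for cysteine and sulfur, where 27.7% of all genes were called. On CD-HFD in Ripk3KO the counts were 3 and 8, 2 and 5, 0 and 6, 1 and 5, and 0 and 7, in the same order (46.3% of all genes). In MlklKO they were 4 and 8, 3 and 5, 0 and 3, 1 and 4, and 0 and 6 (45.2%). On CD-LFD they were 3 and 6, 1 and 4, 0 and 1, 0 and 3, and 1 and 3 in Ripk3KO (24.1%), and 4 and 3, 2 and 4, 1 and 1, 0 and 3, and 3 and 4 in MlklKO (37.9%). With library size alone Ripk3KO on CD-HFD gave 5 and 2, 3 and 3, 0 and 2, 3 and 0, and 2 and 1. The other counts of this paragraph also depend on scaling. With library size alone the split over all genes in MlklKO on CD-HFD moved from 3699 higher and 3019 lower to 6364 and 727. On CD-LFD it moved toward higher calls in each genotype. The counts on CD-LFD in Ripk3KO rest on few livers: without CD-LFD replicate 3 they were 2 and 2, 0 and 2, 0 and 0, 0 and 0, and 1 and 1, and without CD-LFD replicate 1 they were 2 and 3, 1 and 2, 0 and 0, 0 and 1, and 1 and 1. For SAM and SAH partners in WT on CD-LFD, the genes called lower numbered 1 to 5 with 1 library left out, with 1 without CD-LFD replicate 5 or 6 or control replicate 2, and 5 without CD-LFD replicate 3 or control replicate 5 or 6. In MlklKO on CD-HFD the higher calls dropped to 1 for choline and betaine without CD-HFD replicate 2 and to 2 for folate without replicate 4. In MlklKO on CD-LFD the higher folate calls dropped to 2 without CD-LFD replicate 4, and the lower calls to 1 for SAM and SAH partners and 2 for cysteine and sulfur without replicate 1. Single libraries of either group also moved several of the counts of 0 or 1 by 1 gene.

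The genes closest in pattern to each member were taken from 11063 genes by the root mean square (RMS) difference of centred log2 group means over the 9 groups. They were Dpyd (RMS 0.15) and Aldh1l1 (0.16) for Gnmt, whose own group means spanned 2.33, and Aass and Bnip3 (both 0.19) for Ahcy, which spanned 2.00. For Mat1a they were Cry2 (0.11) and Suclg1 (0.13), for Mat2a Nans (0.09) and Gss (0.11), and for Chdh Klf11 (0.06) and Ppp1r21 (0.08). For Bhmt they were Top1mt (0.12) and Gstm6 (0.13), and for Bhmt2 Zfp2 (0.07) and Hoga1 (0.08). Cbs had Cyb5b (0.10) and Gnat1 (0.14), and Cth had Ivd (0.10) and Amigo1 (0.11). Among the members themselves, Cth and Bhmt2 were nearest to each other (0.15), and the nearest to Gnmt was Ahcy (0.36). By the largest difference over groups in place of the RMS, both genes were again named for Gnmt, 1 of 2 for 7 members and 0 for Cth.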

How the data were processed

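Liver RNA was sequenced from directional libraries, per the labels' protocols. The authors deposited raw read counts per Ensembl gene for 44 libraries; the submitters' processing notes name FastQC, STAR, HTSeq, edgeR, limma and GRCm39, without versions. Symbols matched 34373 of 35249 genes. Exon lengths came from GENCODE M21 (GRCm38) and served only levels per kilobase.

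Counts were tested with edgeR 4.0.16 in R 4.3.3 (quasi-likelihood, 9 group means, TMM, filterByExpr with a minimum count of 10), with Benjamini-Hochberg adjustment over 14862 genes in each of 19 comparisons and a threshold of 0.05. SE is the log2 difference over the square root of F. The fit was also run on simulated data in which a small share of genes changed, evenly up and down. That run does not test how directions depend on scaling. Alternatives were RLE factors, library size alone, no count filter, DESeq2 1.42.0, the compared groups only, the replicate number as a block, a clock term, and libraries left out. The fit within low Arntl to Dbp libraries was added after seeing the data, as were all alternatives for pathway and marker lists. BLAST 2.17.0 found near-identical copies.

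The members and all lists were chosen with earlier results of these data known. Named genes were the 9 members, the 2 largest called rises and 2 largest falls per pathway list in WT on CD-HFD, and the 2 nearest in pattern per member (mean log2 CPM of at least 1), with Ripk3 and Mlkl. Labels name no sex, litter, batch or time of day.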

Additional observations from a re-analysis of the deposited data

Results flagged for a closer look

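Among 63 sets of 4 or 6 libraries (1 gene in 1 group), 5 held a library whose gap to its nearest neighbour took up more of the group's range than Dixon's 95% critical value, which chance gives in about 1 of 20 sets. Cth in WT CD-HFD was lowest in replicate 6, at 109 CPM against 191 in the next (gap 0.648 of the range). Chdh in MlklKO CD-LFD was highest in replicate 3, at 178 against 125 (0.844). Bhmt in WT control was highest in replicate 3, at 3761 against 2613 (0.645). Bhmt2 in Ripk3KO CD-HFD was lowest in replicate 1, at 110.0 against 145 (0.929). Cbs in WT CD-HFD was highest in replicate 3, at 303 against 218 (0.657), the library of that group with a high Arntl to Dbp ratio.

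The response to CD-LFD differed between MlklKO and WT livers, by the edgeR test of the difference, for Ahcy (1.28 on the log2 scale), Cth (1.14) and Mat1a (0.94), higher in MlklKO for each. The calls of Ahcy and Mat1a were lost with the clock term (adjusted p 0.0621 and 0.0780) and with only the compared groups in the fit (0.0542 and 0.0509), and that of Mat1a without the count filter (0.0791).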

How the results depend on the processing

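Counts of the 9 genes called moved by more than 1.5 times as follows. In WT CD-HFD against CD-LFD (2 called) 1 was called with library size alone or without the count filter and 0 with the clock term. In MlklKO CD-HFD against CD-LFD (1) 0 were called without the filter, 5 with the compared groups only and 2 within low Arntl to Dbp libraries. In Ripk3KO on CD-LFD against control (5) 3 were called with library size alone, and in Ripk3KO CD-HFD against CD-LFD (0) 1 with the compared groups only or within low-ratio libraries. Against WT, Ripk3KO on CD-LFD (1) gave 0 without the filter or with the clock term and 2 with DESeq2, Ripk3KO on CD-HFD (0) gave 1 with DESeq2 or within low-ratio libraries, and MlklKO on CD-LFD (2) gave 0 with the clock term. MlklKO on control (2) gave 1 without the filter, with the compared groups only or with the clock term, and 0 within low-ratio libraries. The MlklKO difference in response gave 1 on CD-LFD (3) with the compared groups only or the clock term, and on CD-HFD (0) 2 without WT control replicates 5 and 6 and 1 within low-ratio libraries. The cause was not tested.

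With 1 library left out, counts ranged from 0 to 1 for Ripk3KO against WT on CD-LFD and for MlklKO CD-HFD against CD-LFD. They ranged from 1 to 2 for WT CD-HFD against CD-LFD and 1 to 3 for MlklKO against WT on control. Against control they ranged from 3 to 5 for Ripk3KO on either test diet and 2 to 3 for MlklKO on CD-LFD. They were 4 to 5 for MlklKO on CD-HFD and 7 to 9 for WT on CD-HFD. The MlklKO difference in response on CD-LFD gave 3 to 4. Directions were compared where a value passed in at least 1 of the fits, and 3 turned, all with library size alone, to 0.057 (Chdh, WT on CD-HFD), 0.53 (Chdh, Ripk3KO on CD-HFD) and 0.45 (Mat1a, MlklKO on CD-HFD).

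No comparison had every same-number correlation over 0.1, so replicate numbers were not used as pairs. Some WT libraries did correlate by number. Over the WT diet comparisons, replicate 3 gave 0.383 to 0.488 and replicate 6 gave 0.417 to 0.545. Whether such libraries shared a source was not tested, and the block assumed the same effect of a number in all genotypes. With the replicate number as a block, MlklKO CD-HFD against CD-LFD gave 0 calls (Cbs -0.57, adjusted p 0.0616), Mat2a in MlklKO against WT on control passed (0.49, adjusted p 0.0251), and no other call of the 9 genes changed. For WT CD-LFD comparisons no fit within low-ratio libraries could be had.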
